A study of Homo sapiens with 9 samples.

Results

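The nuclear genes that encode the respiratory chain complexes were followed in MDA-MB-231, an established cell line of triple negative breast cancer, after delivery of a potassium channel or a control protein. The rule for members goes by name alone: protein-coding genes whose symbols begin NDUFA, NDUFB, NDUFC, NDUFS, NDUFV, UQCR, ATP5 or COX4 to COX8, plus SDHA, SDHB, SDHC, SDHD and CYC1. They came to 99 of the 60715 genes in the count table, and 180 pseudogenes and 6 other noncoding genes with such names were left out. By complex, the members were 7 core and 31 accessory subunits and 8 assembly factors of complex I, 4 genes of complex II, 10 of complex III, 19 of complex IV and 20 of complex V. NDUFA4 and NDUFA4L2 were placed with complex IV. Of the 99 members, 90 had enough counts to be tested. The other 9 were NDUFC2-KCTD14, NDUFA4L2, COX4I2, COX6A2, COX6B2, COX7A1, COX8C, ATP5MGL and ATP5MF-PTCD1.

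Complexes I to IV pass electrons from NADH and succinate to oxygen along the inner mitochondrial membrane. Complexes I, III and IV pump protons as they do so, and complex V, the ATP synthase, uses the proton gradient to make ATP. A few subunits of complexes I, III, IV and V are encoded by mitochondrial DNA, and the rest, with all of complex II, come from the nuclear genes described here. Cancer lines differ in how much of their ATP they take from this chain and how much from glycolysis.

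Poly(A) RNA was sequenced from 3 groups of lentivirally transduced, fluorescence-sorted MDA-MB-231 cells. The control cells carried RFP, a red fluorescent protein (n = 3). The Kir2.1 cells carried KCNJ2(Kir2.1)-Y242F-EGFP, an inwardly rectifying potassium channel with a substitution, joined to a green fluorescent protein (n = 3). The remaining group is labelled Kv1.5, a voltage-gated potassium channel encoded by KCNA5, in the construct Kv1.5-T2A-his-EGFP (n = 2, replicates 2 and 3). Replicate 1 of that group was not analysed here. The sources used here do not say whether the cells of a group were transduced more than 1 time, so the p-values speak for the spread among cultures and not among independently made lines.

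Library totals ran from 30970235 to 42753422 counts. KCNJ2 stood at 843 to 1384 CPM (counts scaled to a common library size with TMM factors) in the Kir2.1 libraries and at no more than 0.105 CPM elsewhere. KCNA5 had 0 counts in the pair of libraries that carry the Kv1.5 label, so the transgene could not check it, and the label alone names this group throughout. Channel libraries and channel groups below mean the Kir2.1 libraries together with those labelled Kv1.5. RNA of the delivered channel was seen in the Kir2.1 libraries only. VIM, a mesenchymal marker of MDA-MB-231, was at 1748 to 4005 CPM, while the luminal receptor genes ESR1 and PGR were at or under 0.077 CPM. ERBB2, the other gene of that receptor list, was at 48.3 to 76.8 CPM. All 7 genes of the MDA-MB-231 marker list were detected in every library, with summed levels of 5593 to 7245 CPM in RFP, 6693 to 7776 in Kir2.1 and 4226 to 5388 in the libraries labelled Kv1.5, but SPARC was at 217 to 288 CPM in RFP and under 1 CPM in each of the other libraries. Markers of MDA-MB-468, the other breast line of the labels, summed to 685 to 955, 353 to 489 and 484 to 612 CPM in the 3 groups, nearly all from EGFR and KRT81, with KRT6B at 0. Of 5 markers of HEK293T, the line that made the virus, 4 were at 0 in all libraries. Fibroblast and endothelial markers summed to 3.56 to 24.6, 10.8 to 13.2 and 5.73 to 6.37 CPM, and none of the 7 was at 0 throughout. The proliferation marker MKI67 was at 863 to 1108 CPM in RFP and 672 to 1001 in Kir2.1, but at 319 and 67.7 in replicates 2 and 3 labelled Kv1.5. The part of these markers in the results below was not tested, and in bulk RNA fewer cells of a type and less RNA per cell cannot be told apart.

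In each comparison most members had a log2 fold change within 0.5 of 0, where the median standard error (SE) over members was 0.21 to 0.235. The same share was not taken over all tested genes. In Kir2.1 against RFP, 7 members rose and 1 fell among 90 tested, by edgeR's quasi-likelihood test at a Benjamini-Hochberg adjusted p under 0.05 over all genes. COX7B2, a paralog of the complex IV subunit COX7B, was detected in the Kir2.1 libraries and had 0 counts in RFP. ATP5PO, ATP5ME and ATP5IF1 of complex V and NDUFB11, NDUFA3 and NDUFB2 of complex I rose 1.58 to 1.85-fold, and ATP5F1B, the catalytic subunit of the ATP synthase, fell by 0.60 on the log2 scale. The called share of 8.89% of members compares with 20.5% of all 16687 tested genes, where 12.2% were higher and 8.26% lower, and with 17.8% of genes at a mean of 20 CPM or more. The median log2 fold change was -0.02 over the members and -0.01 over all genes, and 74 of 90 members lay within 0.5 of 0. The groups did not overlap for 12 members that were higher and 7 that were lower in Kir2.1, beside 23.9% and 20.8% of all tested genes. Without Kir2.1 replicate 1 the calls became 2 higher and 3 lower, of which ATP5PO, COX7B2 and ATP5F1B were shared with the full set, and without RFP replicate 2, RFP replicate 3 or Kir2.1 replicate 2 there were 4, 3 and 5 calls. With a correction for gene length and GC content the split was 5 higher and 6 lower.

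In the libraries labelled Kv1.5 against RFP, 8 members rose and 9 fell. Those that rose were COX7B2, NDUFV2, ATP5PO, NDUFAF4, NDUFV3, NDUFB11, ATP5ME and ATP5IF1. Those that fell were NDUFA9, COX5A, NDUFC1, NDUFS7, ATP5MC2, SDHA, NDUFB5, UQCRC2 and UQCRFS1. All 9 of these lost their call without replicate 3 of the Kv1.5 label. They include genes of each complex, but complex II is there through SDHA alone, whose values are uncertain because of its pseudogenes. The called share of members was 18.9%, beside 33.7% of all tested genes (18.1% higher, 15.6% lower) and 33.6% of those at 20 CPM or more. The median over members was -0.08 and over all genes 0.02 on the log2 scale, with 64 of 90 members within 0.5 of 0. Groups did not overlap for 17 members that were higher and 19 that were lower, beside 27.9% and 26.4% of all tested genes. Without replicate 3 of the libraries labelled Kv1.5, 5 members were called higher and 1 lower, and ATP5IF1, ATP5PO, COX7B2, NDUFB11 and NDUFV3 were shared with the full set. Without replicate 2, 15 were called higher and 8 lower. The correction for length and GC gave 8 higher and 18 lower, with a median of -0.22. Both comparisons use the same RFP libraries, so that their values for a member are not independent of each other.

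Between the libraries labelled Kv1.5 and the Kir2.1 libraries, 2 members were higher and 1 was lower. NDUFAF4, an assembly factor of complex I, and COX7A2L, which helps to join complexes III and IV into supercomplexes, were the higher pair, and SDHA, the catalytic subunit of complex II, was lower. This was 3.33% of the members, beside 16.8% of all tested genes (8.79% higher, 7.99% lower) and 18.4% of those at 20 CPM or more. Medians were 0.01 over members and 0.01 over all genes, and 69 of 90 members lay within 0.5 of 0. Groups did not overlap for 9 higher and 18 lower members, beside 23.3% and 24.4% of all tested genes. The count ran from 0 without replicate 3 labelled Kv1.5 to 13 without replicate 2, stood at 5 without Kir2.1 replicate 1 and at 1 without Kir2.1 replicate 2 or 3. DESeq2 gave 7 calls, no filter on low counts 10 and the correction for length and GC 5, all of the last lower, while voom, the other filter and both other scalings gave 3 and a fit of the 2 groups alone gave 2.

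**Figure D1:**
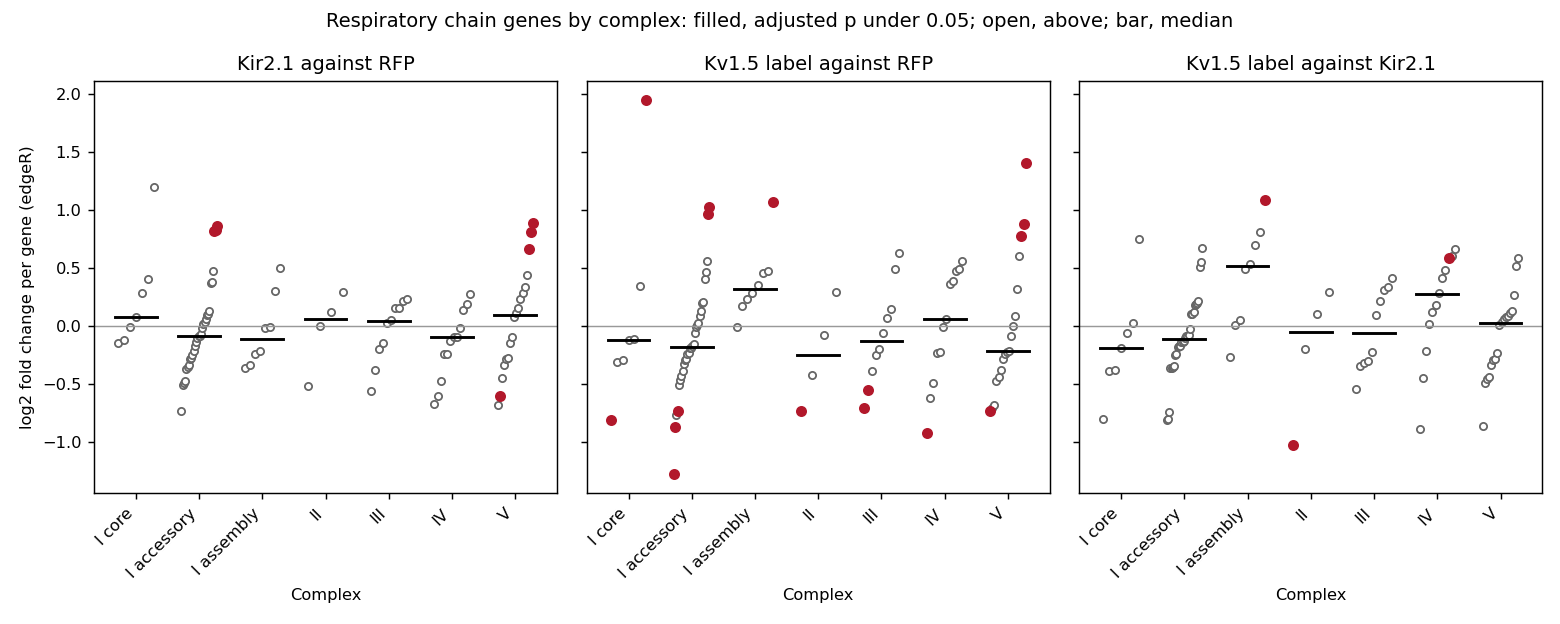
Log2 fold change of each tested member (points, edgeR) by complex, in the 3 comparisons; filled points passed an adjusted p of 0.05, open points did not, and bars are medians over the tested members of a complex. COX7B2, with 0 counts in RFP, counts in the medians of complex IV but is not drawn. Most points lie between -0.5 and 0.5, and the medians of the complexes stay near 0 against RFP, from -0.25 for complex II to 0.32 for the complex I assembly factors, both with the Kv1.5 label.

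Promoters of nuclear respiratory genes are known for sites of NRF1, GABP (an ETS factor) and YY1. The RefSeq window from 250 bases before to 50 after the gene start (GRCh38.p14) was found for 78 of the 99 members and for 27305 genes in all, and was searched on both strands for the letters of NRF1 (GCGC, any base, then TGCGC), ETS (CCGGAAG) and YY1 (AAGATGGCG). Each motif was counted on its own, whether or not it overlapped another. NRF1 letters were in 23.1% of member windows and 6.98% of all windows, ETS letters in 29.5% and 12.2%, and YY1 letters in 12.8% and 2.14%. Among members called higher in Kir2.1, 3 of 7 windows held the NRF1 letters (ATP5ME, ATP5PO and NDUFA3). In the libraries labelled Kv1.5 the letters were in 2 of 8 windows of members called higher and in 3 of 8 windows of members called lower (NDUFA9, SDHA and UQCRFS1). ETS letters were in 1 of 7 windows of members called higher in Kir2.1, and with the Kv1.5 label in 2 of 8 of those called higher and 0 of 8 of those called lower. YY1 letters were in 0 of 7, 0 of 8 and 2 of 8 of the same windows. These counts were not tested. The 150 bases before the start are given 5′ to 3′ for members of both kinds and for COX7B2, whose window held none of the 3 motifs, with NRF1 matches in capitals.
COX7B2, chr4:46909246-46909395, minus strand: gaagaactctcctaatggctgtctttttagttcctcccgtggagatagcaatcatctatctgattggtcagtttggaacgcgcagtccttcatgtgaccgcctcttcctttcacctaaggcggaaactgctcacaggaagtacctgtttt
ATP5PO, chr21:33915805-33915954, minus strand: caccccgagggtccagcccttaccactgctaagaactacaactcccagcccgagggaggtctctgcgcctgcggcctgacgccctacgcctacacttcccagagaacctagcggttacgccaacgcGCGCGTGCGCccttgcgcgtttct
NDUFA3, chr19:54102705-54102854, plus strand: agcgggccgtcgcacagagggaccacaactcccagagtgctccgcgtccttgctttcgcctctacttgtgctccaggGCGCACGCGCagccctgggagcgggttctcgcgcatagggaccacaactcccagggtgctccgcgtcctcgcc
NDUFA9, chr12:4648964-4649113, plus strand: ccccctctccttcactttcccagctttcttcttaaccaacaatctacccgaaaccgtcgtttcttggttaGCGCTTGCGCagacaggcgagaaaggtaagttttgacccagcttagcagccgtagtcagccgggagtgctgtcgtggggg
UQCRFS1, chr19:29213152-29213301, minus strand: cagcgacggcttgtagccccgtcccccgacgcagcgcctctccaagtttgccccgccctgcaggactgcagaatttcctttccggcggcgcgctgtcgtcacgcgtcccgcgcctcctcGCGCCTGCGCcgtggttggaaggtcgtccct
SDHA, chr5:218170-218319, plus strand: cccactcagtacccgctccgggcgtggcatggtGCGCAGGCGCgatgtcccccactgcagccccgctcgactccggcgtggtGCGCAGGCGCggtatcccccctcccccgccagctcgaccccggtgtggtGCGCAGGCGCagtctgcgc
The SDHA stretch holds 3 matches, 117 to 108, 68 to 59 and 19 to 10 bases before the start, and its window has another at 166 to 157. In ATP5PO the match lay 24 to 15 bases before the start, in UQCRFS1 31 to 22, in NDUFA3 73 to 64, with another in its window at 170 to 161, and in NDUFA9 80 to 71. Of these genes, ATP5PO and NDUFA3 rose in Kir2.1, while UQCRFS1, SDHA and NDUFA9 fell with the Kv1.5 label.

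Complex I takes electrons from NADH. Its 7 core subunits, which carry the redox centres of the arm that reaches into the matrix, were called in neither direction in Kir2.1 against RFP by edgeR or limma voom, with 1 at an unadjusted p under 0.05 and 1 called by DESeq2. NDUFS1, which holds iron-sulfur clusters near the NADH site, had the highest counts among them, at 151, 169 and 178 CPM in RFP, 132, 154 and 164 in Kir2.1 and 154 and 151 with the Kv1.5 label. NDUFS7 carries the last iron-sulfur cluster before ubiquinone. It stood at 63.7, 61.7 and 39.4 CPM in RFP, 62.0, 53.4 and 48.4 in Kir2.1 and 39.5 and 23.4 in the libraries labelled Kv1.5. Its fall with the Kv1.5 label was -0.81 ± 0.28 (log2, SE; adjusted p = 0.0398), although replicate 2 overlapped the RFP range by a small margin, and 49.1% of its exon bases overlap noncoding genes on the opposite strand.

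NDUFV2, an iron-sulfur subunit beside the flavin site, was counted at low levels of 1.00, 0.604 and 0.432 CPM in RFP, 1.52, 1.95 and 1.26 in Kir2.1 and 1.75 and 3.56 with the Kv1.5 label. The libraries labelled Kv1.5 were above RFP, by 1.95 ± 0.44 (log2, SE; adjusted p = 0.00535). This value is uncertain, since the pseudogene NDUFV2P1 held 186% as many counts as NDUFV2 itself and was also higher with the Kv1.5 label (0.94, adjusted p = 0.0378). In addition, 28.4% of the exon bases of NDUFV2 overlap AP005263.1 on its strand.

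Of the 30 tested accessory subunits, edgeR called 3 higher and 0 lower in Kir2.1, and 2 higher and 3 lower with the Kv1.5 label. The shares called were 10% and 16.7%, beside 20.5% and 33.7% of all tested genes. In Kir2.1 the correction for length and GC gave 1 higher and 3 lower, and leaving out Kir2.1 replicate 1 gave 0 and 1. NDUFB11 belongs to the membrane arm. Its levels were 64.2, 51.3 and 40.5 CPM in RFP, 126, 86.7 and 70.3 in Kir2.1 and 105 and 98.3 with the Kv1.5 label. Every channel library was above every RFP library, by 0.86 ± 0.24 in Kir2.1 (log2, SE; adjusted p = 0.0230) and 0.97 ± 0.26 with the Kv1.5 label (adjusted p = 0.0131), and 44.9% of its exon bases overlap RBM10 on the opposite strand. NDUFV3, a small subunit at the NADH end, was at 36.6, 33.6 and 35.7 CPM in RFP, 59.5, 45.8 and 41.8 in Kir2.1 and 75.5 and 68.4 with the Kv1.5 label. The 3 groups did not overlap in that order, and the test gave 0.47 in Kir2.1 (adjusted p = 0.0836) and 1.03 ± 0.20 with the Kv1.5 label (adjusted p = 0.00212).

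NDUFA3 and NDUFB2, both supernumerary subunits of the membrane arm, rose in Kir2.1. NDUFA3 read 27.9, 25.0 and 22.5 CPM in RFP, 60.6, 39.6 and 33.3 in Kir2.1, and 30.7 and 22.5 with the Kv1.5 label. It rose in Kir2.1 by 0.82 ± 0.24 (log2, SE; adjusted p = 0.0286), and the libraries labelled Kv1.5 spanned the RFP range (0.08, adjusted p = 0.840). NDUFB2 read 65.6, 85.5 and 56.4 CPM in RFP, 151, 106 and 109 in Kir2.1, and 79.4 and 111 with the Kv1.5 label. Its rise in Kir2.1 was 0.82 ± 0.22 (adjusted p = 0.0212), and 35.1% of its exon bases overlap BRAF or NDUFB2-AS1 on the opposite strand. NDUFS5, the accessory subunit with the highest counts, ran from 156 to 183 CPM in RFP, from 183 to 258 in Kir2.1 and stood at 186 and 309 with the Kv1.5 label, and was called in no comparison.

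NDUFA9, NDUFC1 and NDUFB5 fell with the Kv1.5 label. NDUFA9 sits where the arms of the complex meet. It was at 27.8, 23.1 and 15.9 CPM in RFP, 21.9, 13.9 and 12.5 in Kir2.1 and 10.5 and 7.85 with the Kv1.5 label, a fall by 1.28 on the log2 scale (SE 0.32, adjusted p = 0.00911) against RFP. NDUFC1, a small membrane subunit, had 50.0, 45.8 and 52.2 CPM in RFP, 42.6, 31.3 and 30.1 in Kir2.1 and 30.0 and 23.9 with the Kv1.5 label. Its values were -0.51 in Kir2.1 (adjusted p = 0.0813) and -0.87 ± 0.22 with the Kv1.5 label (adjusted p = 0.0101). Both channel groups lay wholly below RFP. On their strands, 18.5% of the exon bases of NDUFC1 overlap MGARP, and 10.6% of those of NDUFA9 overlap AC005832.4 or AC005833.1. For NDUFB5, 73.7, 76.3 and 103 CPM in RFP compared with 71.1, 60.5 and 63.4 in Kir2.1 and with 52.6 and 48.8 under the Kv1.5 label, where it fell by 0.73 on the log2 scale (SE 0.21, adjusted p = 0.0166).

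Assembly factors build complex I without staying in it. NDUFAF4 was at 29.01, 25.5 and 24.8 CPM in RFP, 30.5, 21.7 and 26.2 in Kir2.1, and 38.2 and 72.7 in the libraries labelled Kv1.5. Both of these were above all other libraries, and they differed from each other more than the other 6 did. The rise was 1.07 ± 0.26 against RFP (log2, SE; adjusted p = 0.00833) and 1.09 ± 0.26 against Kir2.1 (adjusted p = 0.0159). It was the 1 of 8 assembly factors to be called against RFP with the Kv1.5 label (12.5%, beside 33.7% of all tested genes). The median over the 8 was 0.32 there, beside 0.02 over all tested genes. The levels came mostly from 1 library: over the 8 factors the median log2 ratio to the RFP mean was 0.50 in replicate 3 and -0.02 in replicate 2. NDUFAF2 and NDUFAF5, not called, had the same shape, with 43.6 and 88.3 CPM and 19.0 and 38.0 CPM in replicates 2 and 3, against 44.4 to 52.6 and 19.5 to 21.9 in RFP. NDUFAF3, with the highest counts of the 8, was at 39.2 to 57.9 CPM in RFP, 53.8 to 92.9 in Kir2.1 and 63.2 and 56.4 with the Kv1.5 label. None of the 8 was called in Kir2.1 against RFP by edgeR, DESeq2 or voom, and 1 was at an unadjusted p under 0.05.

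Complex II oxidises succinate and belongs to the citric acid cycle as well. SDHA holds its flavin and the succinate site. It was at 27.1, 24.5 and 22.9 CPM in RFP, 36.3, 26.9 and 27.9 in Kir2.1 and 17.0 and 12.8 with the Kv1.5 label. The libraries labelled Kv1.5 were below all 6 others, by -0.73 ± 0.23 against RFP (log2, SE; adjusted p = 0.0276) and -1.03 ± 0.23 against Kir2.1 (adjusted p = 0.0121), and Kir2.1 against RFP gave 0.29 (adjusted p = 0.332). SDHA has near-identical pseudogenes that hold 54.4% as many counts, of which SDHAP4 was at 9.84 to 10.4 CPM in RFP and 8.60 and 6.27 with the Kv1.5 label (-0.45, adjusted p = 0.169), while SDHAP3, at under 2 CPM, rose in Kir2.1 (1.24, adjusted p = 0.0203) and with the Kv1.5 label (1.18, adjusted p = 0.0250). The SDHA values are therefore uncertain.

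The other genes of complex II were called in no comparison. SDHB, the iron-sulfur subunit, was at 124 to 137 CPM in RFP, 117 to 148 in Kir2.1 and 150 and 163 with the Kv1.5 label. The SDHA to SDHB ratio of CPM was 0.184 to 0.198 in RFP, 0.231 to 0.245 in Kir2.1 and 0.113 and 0.0783 with the Kv1.5 label. These ranges did not overlap, but they are as uncertain as the SDHA values. The share of other gene pairs with ranges apart was not taken. SDHC, a membrane anchor, stood at 30.1 to 40.2, 39.1 to 39.4, and 35.1 and 33.3 CPM. SDHD, the other anchor, was at 64.0 CPM in RFP replicate 3 and at 24.6 to 32.6 CPM in the 7 remaining libraries.

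Complex III passes electrons from ubiquinol to cytochrome c. None of its 10 genes was called in Kir2.1 against RFP by edgeR, DESeq2 or voom, with 1 at an unadjusted p under 0.05, and 2 fell with the Kv1.5 label (20%, beside 33.7% of all tested genes called). UQCRC2, a core protein of the matrix face, was at 150, 151 and 158 CPM in RFP, 120, 112 and 120 in Kir2.1 and 103 and 85.1 with the Kv1.5 label. The 3 groups lay apart, at -0.38 in Kir2.1 (adjusted p = 0.108) and -0.70 ± 0.18 with the Kv1.5 label (log2, SE; adjusted p = 0.0107). UQCRFS1, the Rieske iron-sulfur protein, was at 120, 109 and 126 CPM in RFP, 120, 94.9 and 94.5 in Kir2.1 and 86.0 and 76.0 with the Kv1.5 label, a fall by 0.55 on the log2 scale (SE 0.19, adjusted p = 0.0451) that lost its call in 12 of 19 alternative analyses. CYC1, cytochrome c1, ran from 174 to 263 CPM in RFP and from 210 to 284 in Kir2.1, with 247 and 258 under the Kv1.5 label. UQCRB, the member of complex III with the highest counts, varied as much inside groups as between them, at 218 to 401, 179 to 233, and 192 and 343 CPM.

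Complex IV reduces oxygen to water. COX7B2, known mainly from testis, had 0 counts in each RFP library, 3.20, 1.73 and 2.76 CPM in Kir2.1 and 3.31 and 2.87 CPM with the Kv1.5 label. That is 262 counts over 3 libraries and 238 over 2. The gene passed the filter on low counts only through the channel libraries, so its adjusted p-values are no separate support. Set against 3 counts over the RFP group, or 0.0262 CPM, COX7B2 was at least 98.1-fold higher in Kir2.1 (edgeR adjusted p = 1.6e-05) and at least 118-fold higher with the Kv1.5 label (adjusted p = 1.2e-05), bounds that cover counting error only. Leaving out a library put the bounds between 62.3 and 114 and between 75.0 and 127. The gene lies at 46734827 to 46909235 on chromosome 4 (GRCh38, minus strand), and per kilobase of transcript its mean level was 4.73 CPM in Kir2.1 and 5.7 with the Kv1.5 label. COX7C, which encodes another subunit and had the highest counts of the complex, was at 167 to 402 CPM, or 383 per kilobase.

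COX5A, a nuclear subunit on the matrix side, was at 185, 155 and 144 CPM in RFP, 152, 104 and 92.1 in Kir2.1 and 89.3 and 80.8 with the Kv1.5 label. It fell by 0.92 on the log2 scale (SE 0.24, adjusted p = 0.0109) with the Kv1.5 label. COX7A2L was at 104, 108 and 113 CPM in RFP, 114, 90.7 and 99.8 in Kir2.1 and 145 and 160 with the Kv1.5 label. Both libraries labelled Kv1.5 were above all others, by 0.58 ± 0.18 against Kir2.1 (log2, SE; adjusted p = 0.0449) and 0.49 against RFP (adjusted p = 0.0530). Over the 13 tested genes of the complex, replicate 3 of the Kv1.5 label again stood apart, with a median log2 ratio to the RFP mean of 0.50, beside -0.20 in replicate 2.

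Several subunits of complex IV come as pairs of genes used in different tissues, and MDA-MB-231 cells used the widely expressed form in each pair looked at. COX4I1 was at 194 to 284 CPM over the 8 libraries, and COX4I2, the form of lung, had 0 counts in all of them, which allows up to 0.0101 CPM (3 counts over the 8 libraries, counting error only). COX6A1 ran from 64.8 to 139 CPM, with 0 counts of the muscle form COX6A2. COX7A2 ran from 144 to 309 CPM, and the muscle form COX7A1 had 2 counts, both in RFP replicate 3. NDUFA4 was at 120 to 186 CPM, whereas NDUFA4L2, a gene known for its induction by hypoxia, had 1 and 4 counts in Kir2.1 replicates 2 and 3 and 1 in replicate 2 of the Kv1.5 label. None of COX4I1, COX6A1, COX7A2 and NDUFA4 was called in any comparison. COX6B2 and COX8C, both known from testis as COX7B2 is, had no counts in RFP and 2 to 4 and 0 to 4 counts per library in the channel groups, too few to test.

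Complex V makes ATP. ATP5F1B, whose product holds the catalytic sites, was the highest of all members per length, at a mean of 611 CPM per kilobase of transcript over the 8 libraries, ahead of UQCRQ at 395 and COX7C at 383. Its levels were 1468, 1446 and 1283 CPM in RFP, 1018, 865 and 883 in Kir2.1 and 999 and 1021 with the Kv1.5 label. All channel libraries were below all RFP libraries, by -0.60 ± 0.17 in Kir2.1 (log2, SE; adjusted p = 0.0281) and -0.47 ± 0.20 with the Kv1.5 label (adjusted p = 0.0820). ATP5F1A, its partner in the catalytic ring, was called in no comparison, at 384 to 456, 516 to 655, and 489 and 356 CPM.

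ATP5PO, also called OSCP, ties the catalytic head to the peripheral stalk. It was at 37.1, 38.7 and 33.9 CPM in RFP, 88.8, 56.3 and 58.2 in Kir2.1 and 93.5 and 100 with the Kv1.5 label. No group overlapped another, with rises of 0.89 ± 0.20 in Kir2.1 (log2, SE; adjusted p = 0.00824) and 1.41 ± 0.22 with the Kv1.5 label (adjusted p = 0.000534), and a difference between the channel groups of 0.52 (adjusted p = 0.128). The ratio of ATP5PO to ATP5F1B in CPM was 0.0253 to 0.0268 in RFP, 0.0650 to 0.0872 in Kir2.1 and 0.0936 and 0.0983 with the Kv1.5 label. On chromosome 21, 19.6% of the exon bases of ATP5PO overlap AP000311.1 on its strand and 9% LINC00649 on the other.

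ATP5IF1 encodes the factor that inhibits ATP hydrolysis by the synthase when the proton gradient collapses. Its levels were 82.0, 88.0 and 81.4 CPM in RFP, 166, 120 and 112 in Kir2.1 and 141 and 146 with the Kv1.5 label. All 5 channel libraries exceeded all RFP libraries, by 0.66 ± 0.18 in Kir2.1 (log2, SE; adjusted p = 0.0240) and 0.78 ± 0.20 with the Kv1.5 label (adjusted p = 0.0114). Per ATP5F1B, its CPM ratio was 0.0558 to 0.0634 in RFP, 0.127 to 0.163 in Kir2.1 and 0.141 and 0.143 with the Kv1.5 label. Within each library ATP5IF1 and ATP5F1B stood closer together in the channel groups than in RFP. The ratios to ATP5F1B restate the values of the single genes and are not further results.

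ATP5ME, subunit e of the membrane part, was at 53.1, 61.1 and 47.5 CPM in RFP, 116, 81.2 and 84.9 in Kir2.1 and 82.5 and 116 with the Kv1.5 label. It rose by 0.81 ± 0.21 (log2, SE; adjusted p = 0.0160) and 0.88 ± 0.23 (adjusted p = 0.0105), without overlap of RFP and either channel group, and 61.6% of its exon bases overlap MYL5 on the opposite strand. ATP5MC2 encodes the c subunit of the rotating ring. With 209, 168 and 131 CPM in RFP, 182, 126 and 110 in Kir2.1 and 104 and 99.4 with the Kv1.5 label, it fell in the latter by 0.74 on the log2 scale (SE 0.26, adjusted p = 0.0437). Of the 18 tested genes of complex V, 3 rose and 1 fell in each comparison with RFP, but the gene that fell differed. That was 22.2% of the 18 each time, beside 20.5% of all tested genes in Kir2.1 and 33.7% with the Kv1.5 label. None of the 18 was called between the channel groups by edgeR or voom, with 3 at an unadjusted p under 0.05 and 1 called by DESeq2.

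**Figure D2:**
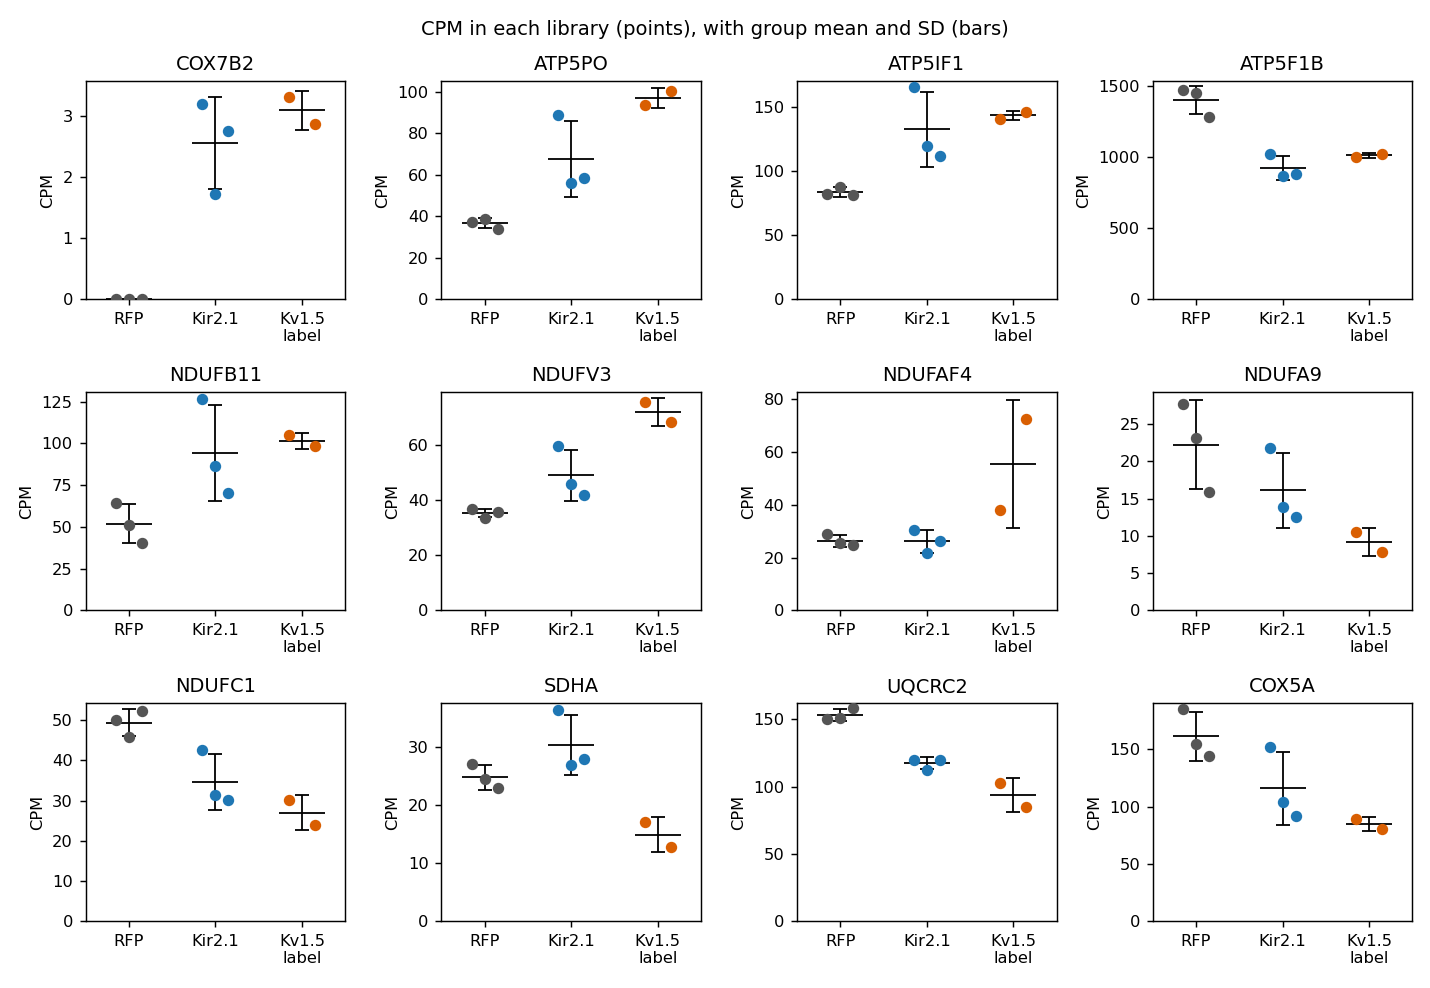
CPM of 12 members in each library (points), with the group mean and SD (bars); every axis starts at 0. COX7B2 is at 0 in RFP, ATP5PO and ATP5IF1 are higher and ATP5F1B is lower in all 5 channel libraries than in RFP, and NDUFAF4 differs between the pair of libraries labelled Kv1.5 (38.2 and 72.7 CPM).

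The calls differed in how far they rested on a single library. ATP5PO and COX7B2 against RFP in both channel groups, and NDUFV3 with the Kv1.5 label, stayed called in 19 of 19 alternative analyses. For COX7B2 this says little, since with 0 counts in every RFP library its calls had little room to change. In Kir2.1, the calls of ATP5IF1, ATP5ME, NDUFA3, NDUFB11 and NDUFB2 were lost without Kir2.1 replicate 1, at log2 fold changes of 0.47, 0.63, 0.54, 0.60 and 0.64. The same 5 were lost without RFP replicate 3, at 0.64 to 0.75, as were some of them without RFP replicate 1 (ATP5IF1, NDUFB2), RFP replicate 2 (ATP5IF1, NDUFA3, NDUFB11) or Kir2.1 replicate 2 (ATP5IF1, NDUFA3), at 0.64 to 0.90. ATP5F1B lost its call without RFP replicate 1 or 2 or Kir2.1 replicate 2 or 3, with values of -0.58 to -0.56. Without replicate 3 of the Kv1.5 label, 12 of the 17 calls against RFP were lost: those of NDUFV2 at 1.35, NDUFAF4 at 0.53, ATP5ME at 0.62 and of the 9 members that had fallen, at -1.08 for NDUFA9, -0.85 for COX5A and -0.72 to -0.46 for the others.

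The least stable of the calls that fell were NDUFS7, UQCRFS1 and ATP5MC2. NDUFS7 also lost its call without RFP replicate 1 or 2 or any 1 of the 3 Kir2.1 libraries, UQCRFS1 without any 1 of 7 libraries, and ATP5MC2 without RFP replicate 1 or 2, Kir2.1 replicate 2 or replicate 2 of the Kv1.5 label, with log2 fold changes of -0.81 to -0.69, -0.63 to -0.46 and -0.77 to -0.56. SDHA lost its call against RFP without RFP replicate 1 (-0.67) or 2 (-0.75). Against Kir2.1, NDUFAF4 and COX7A2L lost theirs without Kir2.1 replicate 2 or 3 or replicate 3 of the Kv1.5 label, COX7A2L also without RFP replicate 1 or 2, and SDHA without replicate 3 of the Kv1.5 label alone (-0.84). Those values were 0.55 to 1.08 for NDUFAF4 and 0.51 to 0.58 for COX7A2L. The correction for length and GC ended the calls of NDUFB11 (0.52) and NDUFB2 (0.58) in Kir2.1, of NDUFA9 with the Kv1.5 label (-1.12) and of NDUFAF4 (0.78) and COX7A2L (0.40) against Kir2.1. A fit of the 2 groups alone ended those of SDHA, ATP5MC2, NDUFS7 and UQCRFS1 against RFP, at -0.80 to -0.55, and of COX7A2L against Kir2.1 (0.59).

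Most members were highest in the same library of the Kir2.1 group. Kir2.1 replicate 1 was the highest of the 3 Kir2.1 libraries for 76 of the 83 members with a mean of at least 20 CPM, or 91.6%, while it was highest for 41.2% of all 7907 genes at that level. Replicate 3 was highest for 7 of these members and replicate 2 for 0. This was not particular to them: the 13 mitochondrially encoded subunits summed to 30652 CPM in replicate 1, beside 24921 and 23341 in replicates 2 and 3. Tested members had a median transcript length of 923 bases, beside 2414 over all tested genes. Genes of like length were not set beside them for this count, and the part of length was not tested. Over the 90 tested members, the median log2 ratio to the RFP mean was 0.21 in Kir2.1 replicate 1 and -0.14 in each of the other Kir2.1 libraries, with RFP libraries at -0.06 to 0.06 and those labelled Kv1.5 at -0.13 and -0.04. Medians over all tested genes were between 0.00 and 0.02 in every library. By complex, Kir2.1 replicate 1 had the highest median of all 8 libraries for the core and accessory subunits of complex I and for complexes II, III and V. Without it, the median over members in Kir2.1 against RFP was -0.18. Within groups, members had a median coefficient of variation of 14.7% in RFP, 18% in Kir2.1 and 16% with the Kv1.5 label, beside 13.9%, 12.8% and 16% for tested genes at 20 CPM or more.

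**Figure D3:**
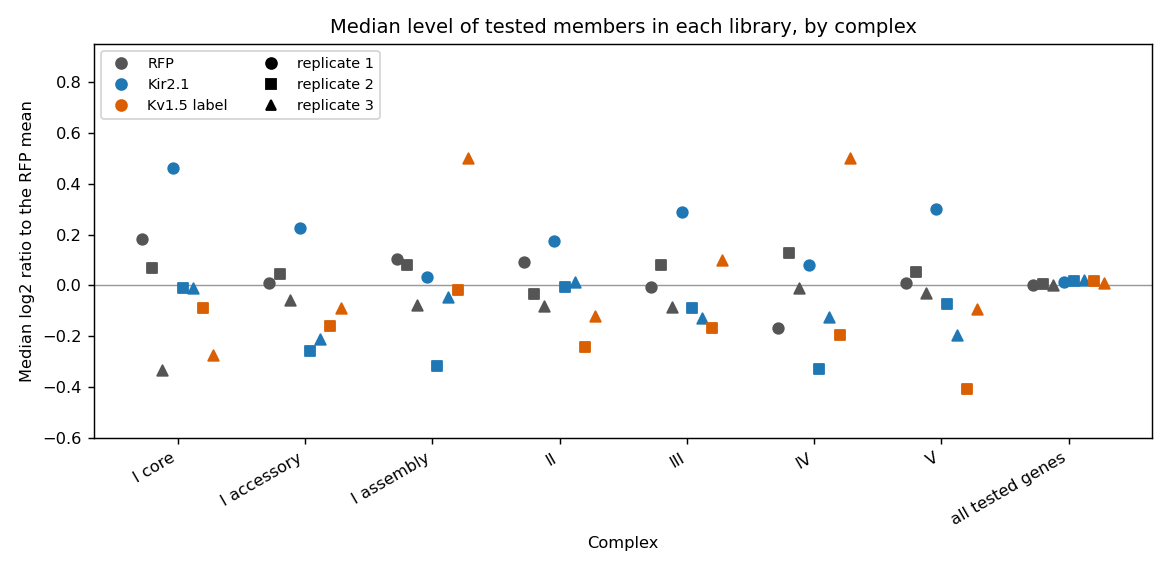
Median log2 ratio to the RFP mean over the tested members of each complex, in each library; color gives the group and shape the replicate number. Kir2.1 replicate 1 lies above the other Kir2.1 libraries in every complex (0.21 over all members, beside -0.14 and -0.14), and replicate 3 of the Kv1.5 label is at 0.50 for the complex I assembly factors and complex IV.

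**Figure D4:**
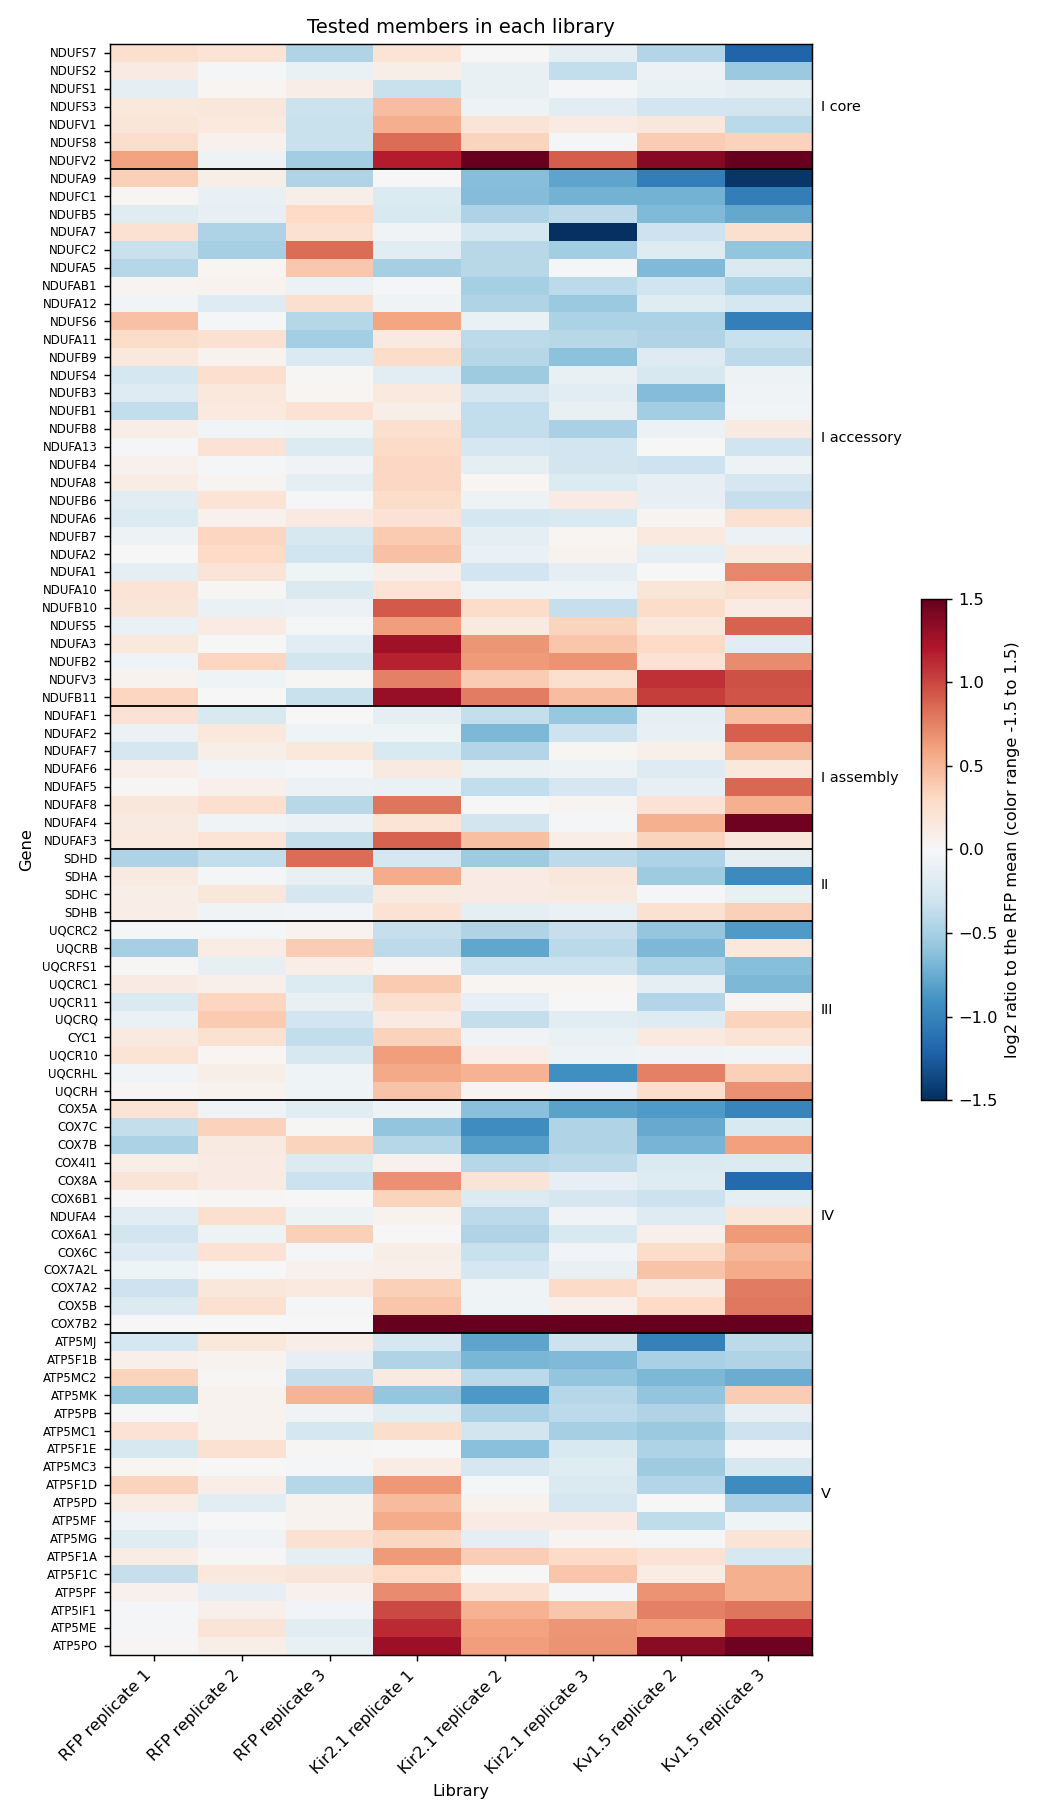
Log2 ratio of each tested member to its RFP mean in the 8 libraries (columns), by complex and ordered by the mean of the channel libraries; colors saturate at -1.5 and 1.5. COX7B2 and ATP5PO are red in all 5 channel libraries, and the column of Kir2.1 replicate 1 is redder than those of the other Kir2.1 libraries.

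In total, the 99 members took 1.12% ± 0.07 of all counts in RFP (SD, n = 3), 1.05% ± 0.15 in Kir2.1 (n = 3) and 1.00% ± 0.06 with the Kv1.5 label (n = 2). By library the shares ran from 1.05 to 1.19% in RFP and from 0.943 to 1.22% in Kir2.1, and were 0.964 and 1.05% with the Kv1.5 label. On TMM-scaled libraries the summed levels were 10722 to 11702 CPM in RFP, 9255 to 12212 in Kir2.1 and 9734 and 11154 with the Kv1.5 label, so that the groups overlapped. The 13 respiratory subunits encoded by mitochondrial DNA took more, 2.14% ± 0.52, 2.66% ± 0.35 and 1.84% ± 0.21. None of the 13 was called against RFP by edgeR in either comparison, with 2 in Kir2.1 and 1 with the Kv1.5 label at an unadjusted p under 0.05, 0 and 1 called by DESeq2 and 1 and 0 by voom. Between the channel groups 1 was called lower with the Kv1.5 label (7.69%, beside 16.8% of all tested genes called): MT-CO3, a core subunit of complex IV, at 4220, 3353 and 3591 CPM in Kir2.1 against 2194 and 2014 (-0.82, adjusted p = 0.0467). DESeq2 called 3 of them there and the correction for length and GC 6, but edgeR called 0 without replicate 3 of the Kv1.5 label or without Kir2.1 replicate 1. All 13 were on that side of 0, with a median of -0.50 beside 0.01 for the 90 nuclear members. The 13 were measured in the same libraries, so their shared side is not 13 independent results.

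Other genes help to build the complexes but fall outside the naming rule. Of 36 such assembly factors, 2 rose and 1 fell in Kir2.1 (8.33% called, beside 20.5% of all tested genes), 4 rose and 6 fell with the Kv1.5 label (27.8%, beside 33.7%), and 3 were higher with the Kv1.5 label than in Kir2.1 (8.33%, beside 16.8%). SURF1, an assembly factor of complex IV, was at 15.5 to 19.3 CPM in RFP and rose by 0.86 (adjusted p = 0.0119) to 26.5 to 37.7 CPM in Kir2.1. The largest change with the Kv1.5 label was that of COA5, at 9.19 to 16.2 CPM in RFP and 25.7 and 33.5 (1.17, adjusted p = 0.00450). COX19, a copper protein factor of complex IV, fell in Kir2.1 and was higher by 1.04 with the Kv1.5 label than in Kir2.1 (adjusted p = 0.00683). Its CPM was 25.6 to 29.1 in RFP, 14.7 to 18.6 in Kir2.1 and 37.6 and 29.2 with the Kv1.5 label.

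Of 12 tested regulators of mitochondrial biogenesis, 3 fell and 1 rose in Kir2.1 (33.3% called, beside 20.5% of all tested genes). The median over the 12 was -0.29, beside -0.01 over all genes. Without Kir2.1 replicate 1 the count was 1 lower and 0 higher. Those that fell were GABPB1, a subunit of the GABP factor, at 45.5 to 51.3 CPM in RFP and 25.2 to 32.4 in Kir2.1 (-0.77, adjusted p = 0.00844), TFAM, which packages mitochondrial DNA (-0.73, adjusted p = 0.0274), and TFB2M, a mitochondrial transcription factor (-0.70, adjusted p = 0.0322). ESRRA, an orphan nuclear receptor of respiratory genes, rose in Kir2.1 by 0.70 (adjusted p = 0.0338), from 31.9 to 46.3 CPM in RFP to 58.9 to 67.5. With the Kv1.5 label ESRRA was at 66.1 and 105 CPM and rose against RFP (1.12, adjusted p = 0.00315), the 1 regulator that edgeR called there (8.33%, beside 33.7% of all tested genes). The counts higher and lower were 2 and 0 with DESeq2, 3 and 0 with the correction for length and GC, and 1 and 3 without replicate 3 of the Kv1.5 label. TFB2M was higher with the Kv1.5 label than in Kir2.1, by 1.10 (adjusted p = 0.00776).

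Among 14 enzymes of the citric acid cycle, which feeds the chain, 1 rose and 1 fell in Kir2.1 and 2 fell with the Kv1.5 label. Each time 14.3% were called, beside 20.5% and 33.7% of all tested genes. OGDH, a subunit of the oxoglutarate dehydrogenase complex, rose by 1.08 (adjusted p = 0.00134), from 124 to 145 CPM in RFP to 250 to 301 in Kir2.1, and IDH3A fell. IDH2 was at 19.5 to 34.3 CPM in RFP, 28.8 to 33.04 in Kir2.1 and 16.9 and 4.92 with the Kv1.5 label, lower than in RFP (-1.34, adjusted p = 0.0280) and than in Kir2.1 (-1.497, adjusted p = 0.0324). Of 17 genes of cytochrome c, quinone synthesis and other electron entry points, 2 rose and 1 fell in Kir2.1, 1 rose and 4 fell with the Kv1.5 label, and 1, PDSS2, was lower with the Kv1.5 label than in Kir2.1. The shares called were 17.6%, 29.4% and 5.88%, beside 20.5%, 33.7% and 16.8% of all tested genes. SQOR, which passes electrons from sulfide to ubiquinone, rose to 29.6 to 48.8 CPM in Kir2.1 and to 58.8 and 24.2 with the Kv1.5 label, from 8.95 to 18.3 in RFP (1.59 and 1.73, adjusted p = 0.00848 and 0.00522). ETFA, which carries electrons from fatty acid oxidation, was near-constant within groups, at 269 to 274 CPM in RFP, 121 to 144 in Kir2.1 and 141 and 144 with the Kv1.5 label, and fell by 1.04 and 0.93 on the log2 scale (adjusted p = 0.000755 and 0.00217).

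Carriers and ribosomes of the mitochondrion completed the lists. Of 6 tested nucleotide and phosphate carriers, 2 fell with the Kv1.5 label (33.3%, beside 33.7% of all tested genes called): SLC25A5, an ATP and ADP exchanger (-0.64, adjusted p = 0.0353), and VDAC3, an outer membrane channel (-0.77, adjusted p = 0.0109). None was called in Kir2.1 by edgeR, DESeq2 or voom, with 0 at an unadjusted p under 0.05. Of 48 mitochondrial ribosomal proteins in the large subunit, 2 rose and 2 fell in Kir2.1 (8.33% called) and 6 rose and 3 fell with the Kv1.5 label (18.8%). Of 29 in the small subunit, 0 rose and 3 fell (10.3%), and 5 rose and 3 fell (27.6%), all shares below the 20.5% and 33.7% of all tested genes. For the large subunit the correction for length and GC gave 0 higher and 4 lower in Kir2.1 and 3 higher and 11 lower with the Kv1.5 label, and without Kir2.1 replicate 1 the former count was 0 and 1. MRPS11 was at 91.5 to 118 CPM in RFP, 39.5 to 57.2 in Kir2.1 and 38.6 and 34.4 with the Kv1.5 label (-1.19 and -1.54, adjusted p = 0.00108 and 0.000355). MRPS24 rose with the Kv1.5 label by 1.94 (adjusted p = 0.00651), from 0.978 to 2.46 CPM in RFP to 8.83 and 3.90. Without replicate 3 of the Kv1.5 label, the counts higher and lower against RFP were 3 and 3 for the large subunit, 3 and 1 for the small subunit, and 3 and 2 for the other assembly factors. Of 9 genes that shape cristae, the inner membrane folds that hold the chain, APOO rose in both channel groups, from 12.8 to 18.3 CPM in RFP to 28.6 to 32.0 and to 29.4 and 33.5 (0.94 and 1.02, adjusted p = 0.00489 and 0.00331). EdgeR called no other of the 9 (11.1% in each comparison with RFP, beside 20.5% and 33.7% of all tested genes), and the correction for length and GC gave 1 lower with the Kv1.5 label.

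The authors' deposited tables of their own comparisons with RFP list few of the members. For Kir2.1 the authors' deposited table lists COX7B2 alone, as higher, and for Kv1.5 it lists COX7B2, NDUFV2 (log2 fold change 1.95), ATP5PO (1.41) and NDUFV3 (1.03), all higher. No listed member was under 1.03, whereas calls here had no threshold on fold change, so the lists cannot be compared by length. NDUFA9 (-1.28) and NDUFAF4 (1.07), called here with the Kv1.5 label, are not listed.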

How the data were processed

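RNA counts of 8 libraries were analysed: 3 RFP, 3 Kir2.1 and 2 labelled Kv1.5, although the design had assumed 9. The authors deposited raw counts per gene as whole numbers. The submitters' processing notes name FastQC, Trimmomatic, STAR, edgeR and GRCh38 with no version. Counting tool, strand setting and annotation: not given in the sources used here. Whether reads of genes that overlap on opposite strands were told apart is therefore not known. The authors' deposited comparison tables give log2 fold changes against RFP.

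Symbols were matched for 60401 of 60715 IDs and GENCODE 29 positions for 58497. The counts were fitted with edgeR 4.0.16 in R 4.3.3 (filterByExpr by group with a minimum count of 10, TMM scaling, robust quasi-likelihood F-test), with 1 fit over all 8 libraries, group as the term and 5 residual degrees of freedom. P-values were Benjamini-Hochberg adjusted over all 16687 tested genes, and called means an adjusted p under 0.05. Standard errors come from the F statistic. CPM use TMM-scaled totals. Levels per kilobase use the lower median length of each gene's principal GENCODE 29 transcripts. A fold against a group with 0 counts is a bound from 3 counts over the group. All pairs of libraries of a group differed by more than sampling noise (chi-square per degree of freedom of at least 27.1).

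The members and lists were chosen with earlier results of these data known. Named genes were, per comparison and complex, the called member with the largest rise and the largest fall, isoform pairs of complex IV, complex II, CYC1, ATP5IF1, the member of each complex with the highest counts, and the called gene with the largest change of each other list, not all of which are reported. Other genes named were picked after their values were seen. Alternatives were scaling by RLE or upper quartile factors, no filter or 1 CPM in 2 libraries, DESeq2 1.42.0, voom of limma 3.58.1, a fit of the compared groups alone, a block for the replicate number, a loess correction for GC and length (span 0.3), each library left out and a threshold of 0.01. The test was checked on simulated counts.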

Additional observations from a re-analysis of the deposited data

How the results depend on the processing

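Over 28 calls of single members and 19 alternatives, 436 of 532 values stayed called in the same direction, 96 lost the call and 0 reversed. Calls with the Kv1.5 label rest on 2 libraries.

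RLE and upper quartile scaling moved the median of all genes by less than 0.1 on the log2 scale. An adjusted p under 0.01 left 2, 6 and 0 called members, taking in order Kir2.1 against RFP, the Kv1.5 label against RFP and the Kv1.5 label against Kir2.1, and 1681, 3123 and 970 called genes. Leaving out 1 library at a time gave 3 to 10, 6 to 23 and 0 to 13 called members, and 1975 to 4519, 3912 to 5536 and 1384 to 3861 called genes. The median log2 fold change over members then ran from -0.184 to 0.0294, from -0.14 to -0.04 and from -0.11 to 0.14. The correction for GC and length gave 26 called members in Kv1.5 against RFP (median -0.22) and 5 in Kv1.5 against Kir2.1, where no filter gave 10 and DESeq2 gave 7. The cause of these changes was not tested.

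Whether replicate numbers pair the libraries could not be settled. Correlations of same-numbered deviations were 0.181, -0.094 and 0.157 for RFP with Kir2.1, where unlike numbers gave -0.218 to 0.085. They were 0.033 and -0.111 for RFP with Kv1.5, and -0.012 and 0.096 for Kir2.1 with Kv1.5. The pair of Kv1.5 libraries mirror each other around their mean, so values with that group say little. With the replicate number as a block, called members were 9, 21 and 6 in the 3 comparisons, and 6 in the last with the correction for GC and length as well.

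Signs turned for 5 differences near 0, none of them called. NDUFS7 in Kir2.1 against RFP (-0.01) was 0.0114 with voom and 0.0224 with the block, and -0.20 to 0.11 with libraries left out. NDUFAF4 in that comparison (-0.02) was 0.22 with the correction for GC and length, 0.21 with the block added, and -0.14 to 0.10 with libraries left out. NDUFA3 in Kv1.5 against RFP (0.08) was -0.13 with the correction, -0.0091 with the block added, and -0.15 to 0.29 with libraries left out. In Kv1.5 against Kir2.1, leaving out libraries gave -0.19 to 0.30 for ATP5ME (0.08) and -0.0735 to 0.37 for NDUFB11 (0.11).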
